A study of Mus musculus with 20 samples.

Results

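The AP-1 and immediate early transcription factors were followed across the 10 conditions of an RNA-sequencing study of mouse mammary epithelial cells. The members were Fos, Fosb, Fosl1 and Fosl2 (the Fos family), Jun, Junb and Jund (the Jun family), Atf3 and Egr1. They were found by gene name in the deposited table, where 9 of 54986 listed genes were members, each with 1 named entry. All values below are read counts of the mRNA scaled to the library's size (CPM, the reads of a gene in each 1000000) and say nothing of protein or phosphorylation.

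The study asked how the cytokine TGFβ and loss of the RNA-binding protein hnRNP E1, encoded by Pcbp1, change gene expression during epithelial–mesenchymal transition, and what the long noncoding RNA Platr18, listed as Lncenc1, contributes. Every library came from NMuMG, a non-transformed mouse mammary gland epithelial line, or from a line derived from it, with 2 libraries for each of the 10 conditions. Wild-type NMuMG cells were left untreated or treated with TGFβ. According to the study, the treatment in its transcriptome comparison lasted days, so the values do not cover a response within minutes. Silencing of hnRNP E1 by shRNA gave E1KD cells. M1P and L1P cells carried the same silencing and were grown in culture after isolation from a primary tumor and from lung metastases of E1KD cells injected into the mammary fat pad of NOD/SCID mice. NMuMG cells with an empty vector were the control of Platr18-overexpressing clones 12 and 16, which are 2 single clones. A scrambled shRNA in E1KD cells (E1KD SCR) was the control of a shRNA against Platr18 in the same cells (E1KD Platr18 KD), so both carried the hnRNP E1 silencing. No source used here says that the replicates came from separate cultures, or how many mice gave the tumor and metastasis lines, so the p-values measure only the spread between these libraries.

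AP-1 is a dimer of basic leucine zipper proteins. Jun proteins pair with each other or with Fos proteins, while Fos proteins need a partner, and Atf3 can join Jun proteins. The genes are called immediate early because growth factors, cytokines and stress raise several of them within minutes without new protein synthesis, through MAP kinases, serum response factor and proteins bound at cAMP response elements. Egr1, a zinc finger factor outside AP-1, is raised by the same signals. In epithelial cells, Fosl1 (Fra-1) and Fosl2 (Fra-2) are known for their links to motility and invasion, and AP-1 works together with SMAD proteins at TGFβ target genes.

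Many members are regulated through elements close to their start of transcription. RefSeq promoter windows of the GRCm38.p6 build, each holding 250 bases before and 50 after the start, were searched on both strands for 5 motifs: the AP-1 site TGANTCA, the full cAMP response element TGACGTCA, the core TGACG, which lies within the full element, the AP-1-like element TGACATCA, and the CArG box of serum response factor. Of 32851 such promoters, 7.81% held TGANTCA, 1.79% TGACGTCA, 20.8% TGACG, 3.62% TGACATCA and 1.63% a CArG box. Windows of 30 bases around each match in the members are shown in the direction of transcription because the core TGACG recurs among them. The capitals mark the motif. The Fos windows lie on the plus strand at chr12:85473749-85473778 and chr12:85473812-85473841, with the motif beginning 129 and 66 bases before the start. The other windows lie on the minus strand, at chr7:19310088-19310117 for Fosb (60 bases before the start), chr4:95052249-95052278 for Jun (45 bases), chr8:84978837-84978866 for Junb (106 bases) and chr1:191183323-191183352 for Atf3 (7 bases, motif read on the opposite strand as CGTCA).
Fos distal: ggggcgtagagtTGACGacagagcgcccgc
Fos proximal: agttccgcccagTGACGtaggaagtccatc
Fosb: tggagttgcgggTGACGcaagcgcgggggc
Jun: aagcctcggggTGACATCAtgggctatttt
Junb: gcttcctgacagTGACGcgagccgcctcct
Atf3: ttaatagcattaCGTCAgcctgggattggt
A match is a description of the sequence and not a binding site. The windows of Fosl2 (chr5:32136222-32136521) and Jund (chr8:70697489-70697788) held none of the 5 motifs. A RefSeq start can differ from that of the entry in the deposited values. There the Fosl2 entry begins at 32135801, the chr8 Jund entry at 70698949, and the Atf3 entry, on the minus strand, at 191218039. Fosl1 and Egr1 were not searched.

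The libraries fell into 2 kinds that follow the experiments. The 10 libraries of NMuMG with and without TGFβ, of E1KD, of M1P and of L1P held 333 to 492 CPM of the mitochondrial rRNA mt-Rnr2 and the other 10 held 113874 to 165149 CPM, so groups were compared only within a kind. The values were scaled to between 50.8 and 60.0 M reads in the first kind and between 63.0 and 147 M in the second, and 3 reads were worth 0.0204 to 0.0591 CPM. Pcbp1, the silenced gene, fell from a mean of 299.5 CPM in NMuMG to 15.4 CPM in E1KD and from 32.3 CPM with the empty vector to 3.37 CPM in E1KD SCR. Of 5 epithelial markers, Krt8, Krt18 and Cdh1 were present in every group and Epcam did not exceed 0.0168 CPM in any library. Krt7 had a mean of 18.7 CPM in NMuMG, 10.9 CPM after TGFβ and 2.06 CPM in E1KD, and it did not reach 1 CPM in M1P, L1P or E1KD Platr18 KD. The 3 endothelial markers summed to at most 0.541 CPM, the 2 lung epithelial markers to at most 0.0396 CPM, and the 5 haematopoietic markers to 1.45 to 6.85 CPM, of which Cd68 and Lyz2 reached 1 CPM in some libraries and the macrophage marker Adgre1 did not exceed 0.01 CPM.

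Differences between groups were tested with limma on log2(CPM + 1) over the 17106 genes that reached 1 CPM in 2 or more libraries, in a single fit of the 20 libraries. A gene was called at an unadjusted p below 0.001 with a log2 fold change of at least 1 in either direction. Each adjusted p given below is limma's after Benjamini-Hochberg adjustment over all tested genes. All 9 members passed the expression filter, but Fosb reached 1 CPM in only 2 libraries, both of them TGFβ-treated, so its call in that group follows in part from the filter. In bulk RNA, fewer cells expressing a gene and less RNA per cell cannot be told apart.

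**Figure D1:**
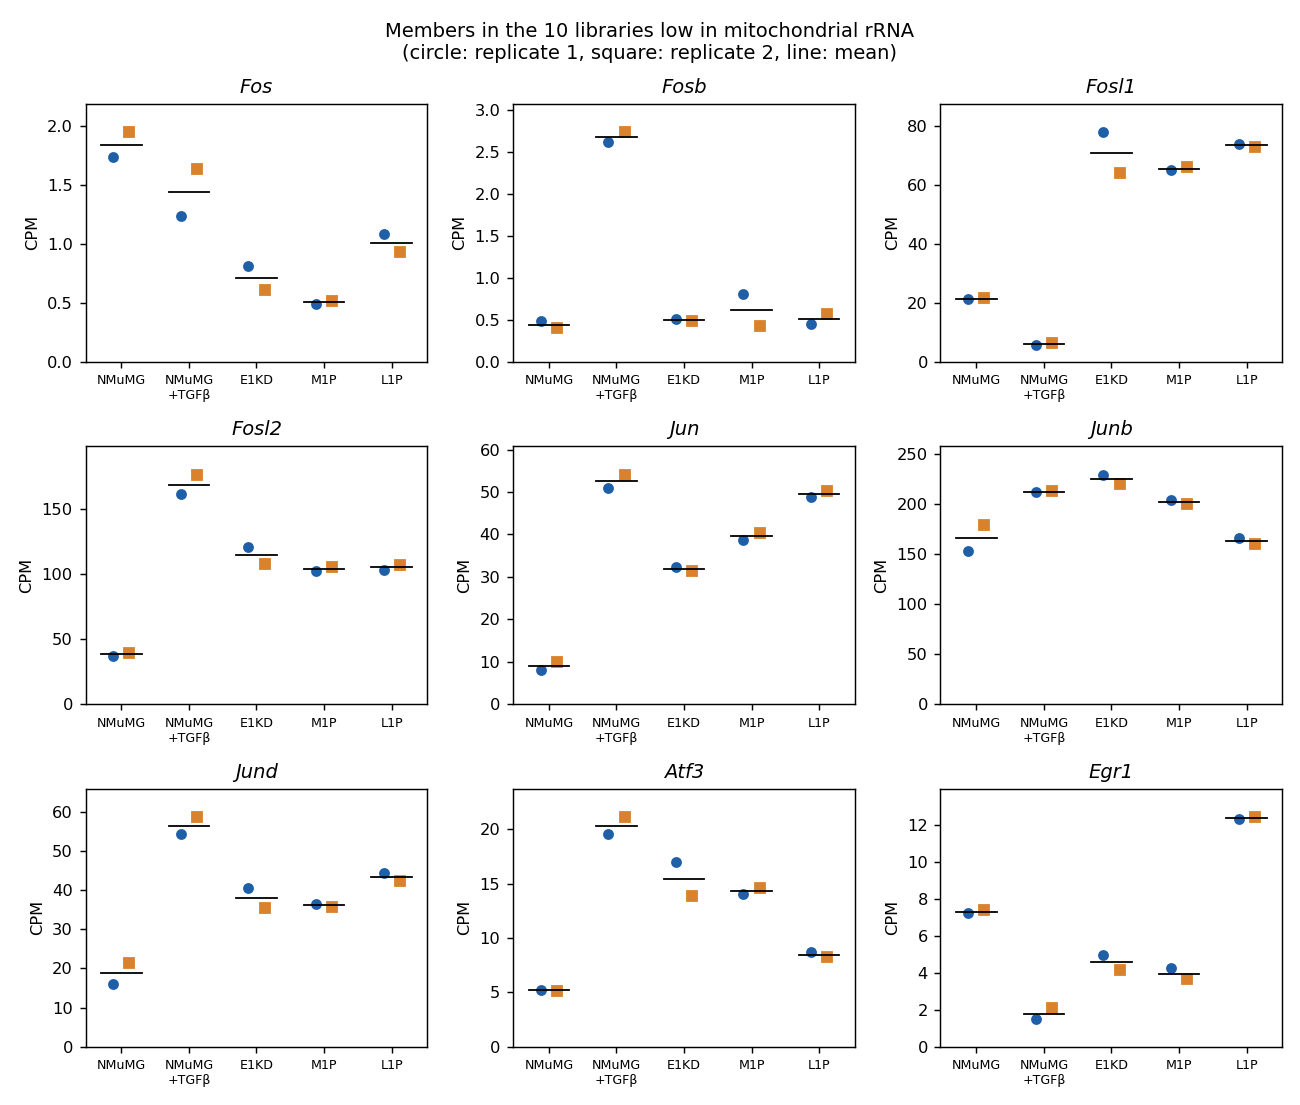
CPM (vertical axis, from 0, scaled for each gene) of the 9 members in NMuMG with and without TGFβ, in E1KD, in M1P and in L1P. Circles are replicate 1, squares replicate 2 and lines the mean of both. Fosl1 was lowest after TGFβ, while Fosb, Fosl2, Jun, Jund and Atf3 were highest there.

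TGFβ treatment of NMuMG cells changed 7 of the 9 members. Fosb, Fosl2, Jun, Jund and Atf3 rose, and Fosl1 and Egr1 fell, so the 2 Fos-related antigens moved in opposite directions. Over all tested genes, 13.5% were called in this comparison, 5.85% as higher and 7.66% as lower. The median log2 fold change of all tested genes was -0.08. The mesenchymal marker Fn1, which encodes fibronectin, rose from a mean of 10.7 to 681 CPM in the same comparison.

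Fosl1, which encodes Fra-1, stood at 21.1 and 21.6 CPM in NMuMG and at 5.76 and 6.26 CPM after TGFβ. The treated libraries were both far below the untreated ones, a 3.55-fold lower mean (log2 fold change -1.67, SE 0.09, adjusted p = 1.5e-09 from limma). Fosl2, which encodes Fra-2, went from 37.3 and 39.4 CPM to 161 and 176 CPM. This was a 4.39-fold higher mean (log2 fold change 2.11, SE 0.09, adjusted p = 7.7e-11 from limma). Fosb rose from 0.478 and 0.396 CPM to 2.62 and 2.73 CPM (log2 fold change 1.36, adjusted p = 2.7e-08 from limma), a low level in both states. Its call follows in part from the filter. Fos itself stood at 1.73 and 1.94 CPM without and 1.24 and 1.63 CPM with TGFβ and was not called (log2 fold change -0.23, 95% interval -0.46 to 0.01).

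Jun had the largest change of the 9 members on the log2(CPM + 1) scale, while as a ratio of means Fosb changed more (6.12-fold). Jun stood at 8.01 and 9.92 CPM in NMuMG and at 51.0 and 54.0 CPM after TGFβ, a 5.86-fold higher mean (log2 fold change 2.43, SE 0.12, adjusted p = 3.5e-10 from limma). Jund, often counted as the least inducible Jun protein, was listed at 16.1 and 21.5 CPM and then at 54.4 and 58.6 CPM (log2 fold change 1.55, SE 0.19, adjusted p = 7.2e-06 from limma). Junb was already high at 153 and 179 CPM, and its 212 and 213 CPM after TGFβ did not pass the test (log2 fold change 0.36, 95% interval -0.12 to 0.83). The stress-responsive factor Atf3 rose from 5.22 and 5.15 CPM to 19.5 and 21.1 CPM (log2 fold change 1.78, adjusted p = 4.4e-10 from limma). Egr1 fell from 7.20 and 7.39 CPM to 1.49 and 2.08 CPM, a 4.09-fold lower mean (log2 fold change -1.58, adjusted p = 1.1e-07 from limma).

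With hnRNP E1 silenced, 4 of the 9 members were called higher and 0 lower in E1KD against NMuMG. In the second pair with this silencing, E1KD SCR against the empty vector, 0 were called, as described below. Fosl1, Fosl2, Jun and Atf3 rose in E1KD cells relative to NMuMG. Over all tested genes 9.44% were called in either direction and 6.44% were called higher. The median of all tested genes was itself 0.17 higher in E1KD on the log2 scale, and after rescaling by median-of-ratios factors, which brought that median to 0.02, the same 4 were called with log2 fold changes of 1.46 for Fosl1, 1.33 for Fosl2, 1.52 for Jun and 1.20 for Atf3.

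Fosl1 rose from 21.1 and 21.6 CPM to 77.8 and 63.8 CPM, a 3.31-fold higher mean (log2 fold change 1.68, SE 0.09, adjusted p = 2.1e-09 from limma). Fosl2 stood at 120 and 108 CPM in E1KD, 2.97-fold above the NMuMG mean (log2 fold change 1.55, adjusted p = 3.4e-09 from limma). Jun reached 32.4 and 31.4 CPM, a 3.55-fold higher mean (log2 fold change 1.73, adjusted p = 2.3e-08 from limma). Atf3 reached 16.97 and 13.8 CPM (log2 fold change 1.40, adjusted p = 9.4e-09 from limma). The libraries of E1KD and NMuMG did not overlap in these 4 genes, nor in the 5 members not called, so this does not set the 4 apart. E1KD replicate 2 was lower than replicate 1 over most genes, with a median difference of -0.29 on the log2 scale, and without either E1KD library the same 4 were called.

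Jund, at 40.6 and 35.5 CPM in E1KD, fell just short of the size limit at 0.99 (log2 fold change, limma adjusted p = 5.3e-04), and it was called without E1KD replicate 2 (1.09) or without NMuMG replicate 2 (1.19). It had 0.80 without NMuMG replicate 1, 0.78 after median-of-ratios scaling and 0.77 after correction for transcript GC, a correction added after seeing the data. Fos was lower in both E1KD libraries, at 0.807 and 0.610 CPM (log2 fold change -0.73, adjusted p = 5.4e-05 from limma), and Egr1 was lower at 4.98 and 4.16 CPM (log2 fold change -0.58, adjusted p = 0.0019 from limma), and neither reached the size limit. With a pseudocount of 0.1 in place of 1, which compresses low levels less, Fos was called lower (-1.27). Junb, at 229 and 220 CPM, had a log2 fold change of 0.44 (95% interval -0.04 to 0.91). Fosb remained at 0.512 and 0.481 CPM (log2 fold change 0.06, 95% interval -0.15 to 0.27).

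The TGFβ and E1KD comparisons share the untreated NMuMG libraries, so E1KD was also compared with TGFβ-treated NMuMG directly. Fosl1 and Egr1 were called higher and Fosb lower in E1KD, against 23.3% of all tested genes called in this comparison, 17.2% as higher and 6.17% as lower. Fosl1 differed most, with an 11.8-fold higher mean in E1KD (log2 fold change 3.35, 95% interval 3.15 to 3.55, adjusted p = 5.5e-13 from limma). Fosb was 5.39-fold lower in E1KD (log2 fold change -1.30, adjusted p = 3.1e-08 from limma). It passed the filter only through the TGFβ-treated libraries, so this call follows in part from the filter. Egr1 was 2.56-fold higher, a log2 difference of 1.00 (adjusted p = 9.0e-06 from limma), and it did not keep its call when the median shift of 0.26 in this comparison was removed by rescaling (log2 fold change 0.71), nor without E1KD replicate 1 (0.90) or TGFβ replicate 1 (0.85). Jun was 1.65-fold lower in E1KD than after TGFβ (log2 fold change -0.70) and became called after that rescaling (-1.09). Fosl2, Jund and Atf3 had log2 fold changes of -0.56, -0.56 and -0.38, short of the size limit. After that rescaling they had -0.95, -0.95 and -0.76, still short of it.

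**Figure D2:**
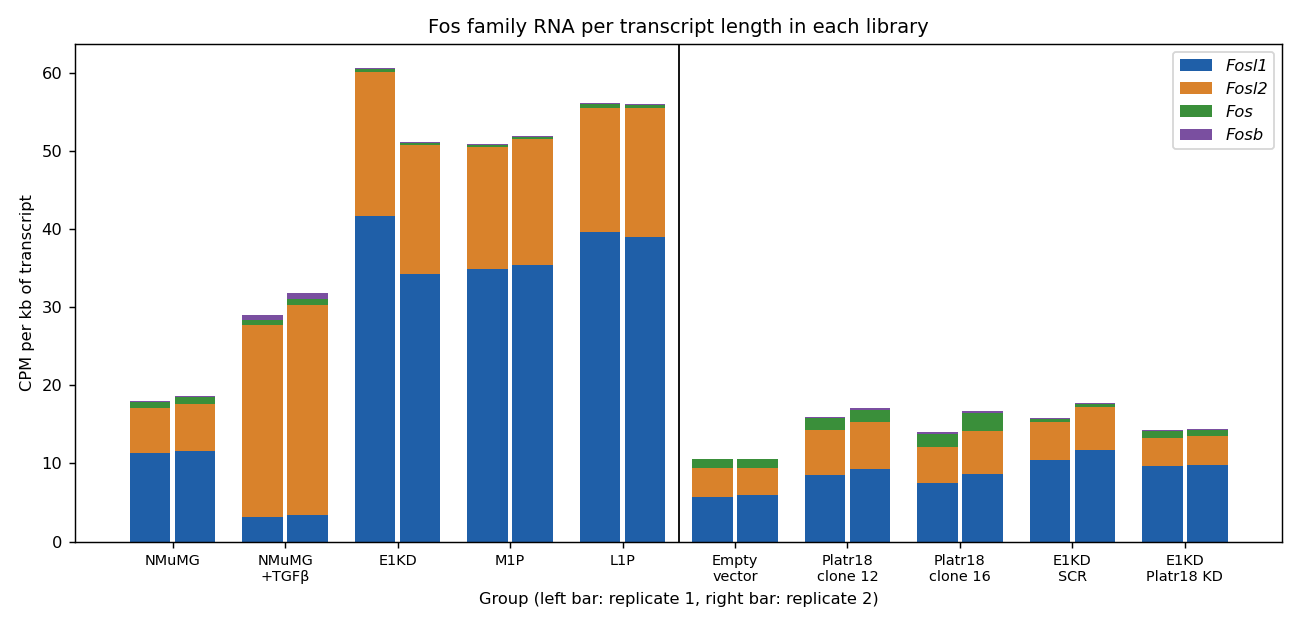
Stacked CPM per kb of the longest transcript (vertical axis, from 0) of Fosl1, Fosl2, Fos and Fosb in each of the 20 libraries, with replicate 1 at left and replicate 2 at right in each group. Fosl1 formed the larger part everywhere except after TGFβ, where Fosl2 made up 84.7% to 84.9% of the family.

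Dividing CPM by transcript length allows levels of different genes to be set side by side. Of the Fos family's CPM per kb of the longest annotated transcript, Fosl1 made up 62.1% to 63.0% in the NMuMG libraries and Fosl2 31.7% to 32.4%. After TGFβ the order turned over, with 10.6% to 10.7% for Fosl1 and 84.7% to 84.9% for Fosl2. In E1KD the shares stayed near those of NMuMG, at 66.9% to 68.8% for Fosl1 and 30.3% to 32.3% for Fosl2, while the family's summed level went from 18.0 and 18.6 CPM per kb in NMuMG to 60.6 and 51.1 CPM per kb in E1KD. With TGFβ this sum was 29.0 and 31.8 CPM per kb. Fos, the family's founding member, made up 4.57% to 4.95% in NMuMG and 0.566% to 0.632% in E1KD. The same turn in order was seen with the union of all exons as the length, which gave Fosl2 81.2% to 81.5% after TGFβ. These shares are descriptions, and no test was made of them.

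In the Jun family, counting Jund as the sum of both its entries, Junb made up the largest part of the CPM per kb in every group. Its share was 77.9% to 79.6% in NMuMG, 57.4% to 59.2% after TGFβ, 68.2% to 70.1% in E1KD and 56.9% to 57.1% in L1P. Jun made up 2.37% to 2.45% in NMuMG, 8.07% to 8.28% after TGFβ and 9.56% to 10.1% in L1P. Jund took 18.0% to 19.6% in NMuMG and 33.0% to 33.3% in L1P.

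The tumor line M1P was compared with the E1KD cells that were injected. By limma 0 of the 9 members were called, against 3.59% of all tested genes. At an unadjusted p below 0.05 of any size there was 1 member, Jun, against 56.2%, and at an adjusted p below 0.05 there were 0, against 49.1%. These shares include a shift of all genes, whose median was -0.17 in this comparison. After GC correction, 3 members had an adjusted p below 0.05 from limma, against 53.0% of all tested genes. These were Jun (log2 fold change 0.55), Fosl1 (0.18) and Fosb (0.35), none at the size limit. Jun had 0.30 as reported (95% interval 0.04 to 0.56) and 0.51 after median-of-ratios scaling. Fosl1 stood at 65.0 and 66.0 CPM in M1P, Fosl2 at 102 and 105 CPM, Jun at 38.8 and 40.3 CPM, Junb at 204 and 200 CPM and Atf3 at 14.1 and 14.6 CPM. The levels of Fosl1, Jund, Atf3, Egr1 and Fosb overlapped between the libraries of both groups. The widest 95% interval was that of Junb, with a log2 fold change between -0.63 and 0.32, and that of Fosl1 ran from -0.31 to 0.10. Because of the shift of all genes, small negative values here carry no direction. The haematopoietic markers summed to 1.85 to 2.72 CPM in E1KD and 5.57 to 6.14 CPM in M1P, where Lyz2 rose from a mean of 0.221 to 3.05 CPM (log2 fold change 1.73), and Cdh1 fell from 177 to 70.8 CPM (-1.29). Their part in the member values was not tested.

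Among the members, Egr1 differed most between the metastasis line and the tumor line. It stood at 4.24 and 3.65 CPM in M1P and at 12.3 and 12.4 CPM in L1P, a 3.13-fold higher mean (log2 fold change 1.43, 95% interval 1.15 to 1.72, adjusted p = 3.2e-06 from limma). It was the only member called, against 1.21% of all tested genes, or 0.742% called higher. The L1P level also lay above both NMuMG libraries, by a log2 fold change of 0.69 that was short of the limit. Atf3 was lower in L1P, at 8.67 and 8.25 CPM against 14.1 and 14.6 CPM in M1P, without reaching the size limit (log2 fold change -0.70, adjusted p = 8.6e-05 from limma). Fos had 1.08 and 0.932 CPM in L1P against 0.489 and 0.514 CPM in M1P (log2 fold change 0.42, adjusted p = 0.015 from limma). The 5 haematopoietic markers summed to 5.57 to 6.14 CPM in M1P and 6.44 to 6.85 CPM in L1P, mainly Lyz2 and Cd68, with Adgre1 listed at 0 in these libraries, and their part in the Egr1 difference was not tested.

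L1P compared with NMuMG gives the end points of the series of lines, and the members called there were Fosl1, Fosl2, Jun and Jund, all higher, against 6.38% of all tested genes called higher. Jun was 5.53-fold higher in L1P, at 48.8 and 50.3 CPM (log2 fold change 2.35, adjusted p = 5.4e-10 from limma), Fosl1 3.43-fold at 73.9 and 72.7 CPM (log2 fold change 1.73), and Fosl2 2.74-fold at 103 and 107 CPM (log2 fold change 1.43). Jund, at 44.3 and 42.4 CPM, was 2.31-fold higher (log2 fold change 1.18, adjusted p = 1.2e-04 from limma), and without NMuMG replicate 1 it missed the limit (0.98). Atf3 had a log2 fold change of 0.61 and Junb one of -0.02 (95% interval -0.50 to 0.45). The epithelial markers summed to 2460 to 2493 CPM in NMuMG and 1333 to 1334 CPM in L1P, with Krt7 (to 0.537 CPM, log2 fold change -3.68) and Cdh1 (234 to 110 CPM, -1.08) called lower. The haematopoietic markers summed to 1.45 to 1.58 CPM in NMuMG and 6.44 to 6.85 CPM in L1P, with Lyz2 called higher (0.382 to 4.65 CPM, 2.03). The part of these markers in the member differences was not tested.

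Ordered by mean level among these 5 groups, Jun ran from TGFβ-treated NMuMG through L1P, M1P and E1KD down to NMuMG, with no overlap between the libraries of any neighbours. For Fosl1 the order was L1P, E1KD, M1P, NMuMG and TGFβ, and the libraries of L1P and E1KD and those of E1KD and M1P overlapped. For Fosl2 it was TGFβ, E1KD, L1P, M1P and NMuMG, with L1P and M1P overlapping. For Egr1 the order was L1P, NMuMG, E1KD, M1P and TGFβ, with E1KD and M1P overlapping. The place of E1KD depends on the scaling, since its replicate 1 had a median-of-ratios factor of 1.32. After that scaling the order was L1P, M1P, E1KD, NMuMG and TGFβ for Fosl1, with no overlap. For Fosl2 it became TGFβ, M1P, L1P, E1KD and NMuMG, with M1P, L1P and E1KD overlapping, and for Egr1 L1P, NMuMG, M1P, E1KD and TGFβ, with M1P and E1KD overlapping. The order of Jun was the same under both.

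**Figure D3:**
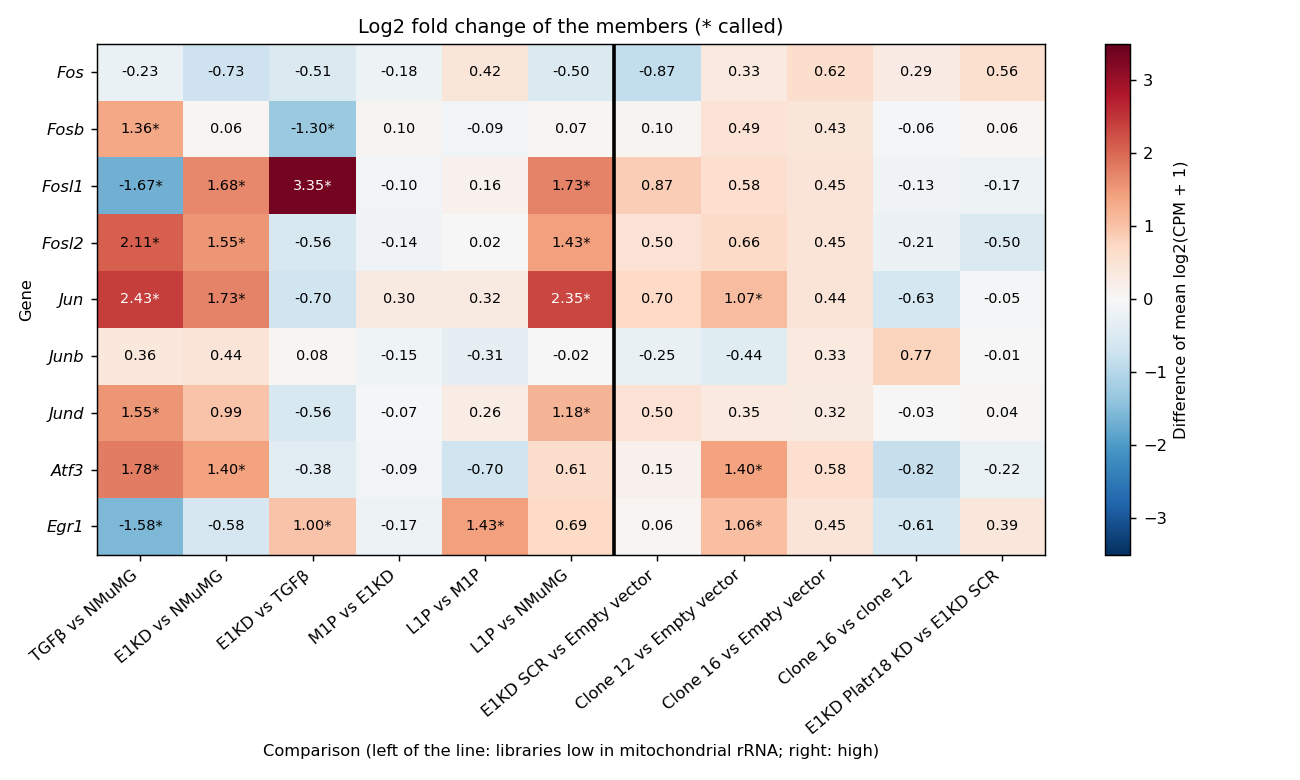
Log2 fold change (difference of mean log2(CPM + 1), color and number) of each member (vertical axis) in 11 comparisons (horizontal axis), with a star on called values. Left of the black line are the libraries low in mitochondrial rRNA, right of it those high in it. Fosl1 was called lower with TGFβ (-1.67) and higher in E1KD (1.68).

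Platr18 overexpression was measured in clones 12 and 16 against the same empty vector libraries. Lncenc1 stood at a mean of 3094 CPM in clone 12 and 816.5 CPM in clone 16, against 3.37 CPM with the empty vector. With both clones in 1 comparison, limma called 0 of the 9 members, against 1.46% of all tested genes. At an adjusted p below 0.05 of any size, 7 of the 9 members were higher, against 28.8% of all tested genes in either direction, and the count was 7 at an unadjusted p below 0.05, against 38.3%. Of these Atf3 was nearest the limit, at 0.99 on the log2 scale (95% interval 0.82 to 1.16, adjusted p = 4.4e-07 from limma), and it passed without empty vector replicate 1 (1.04). Jun and Egr1 both had 0.76, and Fosl2 0.55. Fosb, at 0.164 to 0.275 CPM with the empty vector and 0.579 to 0.844 CPM in the clones, had 0.46, and 1.29 with a pseudocount of 0.1, which was called.

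In clone 12 Jun, Atf3 and Egr1 rose, against 3.65% of all tested genes called and 1.13% called higher. Atf3 went from 8.56 and 7.88 CPM with the empty vector to 23.5 and 23.1 CPM, a 2.83-fold higher mean (log2 fold change 1.40, SE 0.09, adjusted p = 2.9e-08 from limma). Jun went from 5.0 and 4.82 CPM to 10.2 and 12.8 CPM (log2 fold change 1.07, adjusted p = 8.0e-06 from limma). Egr1 went from 2.22 and 1.94 CPM to 5.27 and 5.60 CPM (log2 fold change 1.06, adjusted p = 2.0e-05 from limma). The calls of Jun and Egr1 are close to the limit, since without clone 12 replicate 2 Jun had 0.92 and without empty vector replicate 2 Egr1 had 0.999.

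In clone 16, 0 of the 9 members were called, against 1.78% of all tested genes, while 7 had an adjusted p below 0.05 from limma, against 23.2%, and 7 an unadjusted p below 0.05, against 34.3%. Its Atf3 levels were 12.7 and 12.8 CPM (log2 fold change 0.58) and its Jun levels 6.32 and 7.81 CPM (log2 fold change 0.44). Its Egr1 levels were 2.69 and 3.80 CPM (log2 fold change 0.45). Fos was higher in this clone than in the other libraries of this kind, at 3.73 and 4.89 CPM against 2.34 and 2.51 CPM with the empty vector (log2 fold change 0.62, adjusted p = 7.9e-04 from limma).

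Comparing the clones with each other tests whether they differ, and limma called 0 members there, against 4.38% of all tested genes, with 6 at an unadjusted p below 0.05, against 49.0%. Atf3 was 1.82-fold lower in clone 16 than in clone 12 (log2 fold change -0.82, 95% interval -1.01 to -0.62, adjusted p = 5.6e-06 from limma). Jun and Egr1 had log2 fold changes of -0.63 and -0.61 in the same direction. Junb had 0.77 (adjusted p = 0.012 from limma), and 1.18 without clone 12 replicate 2, which was called. The clones also differed 3.79-fold in Lncenc1 itself, and clone and Lncenc1 level cannot be told apart.

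**Figure D4:**
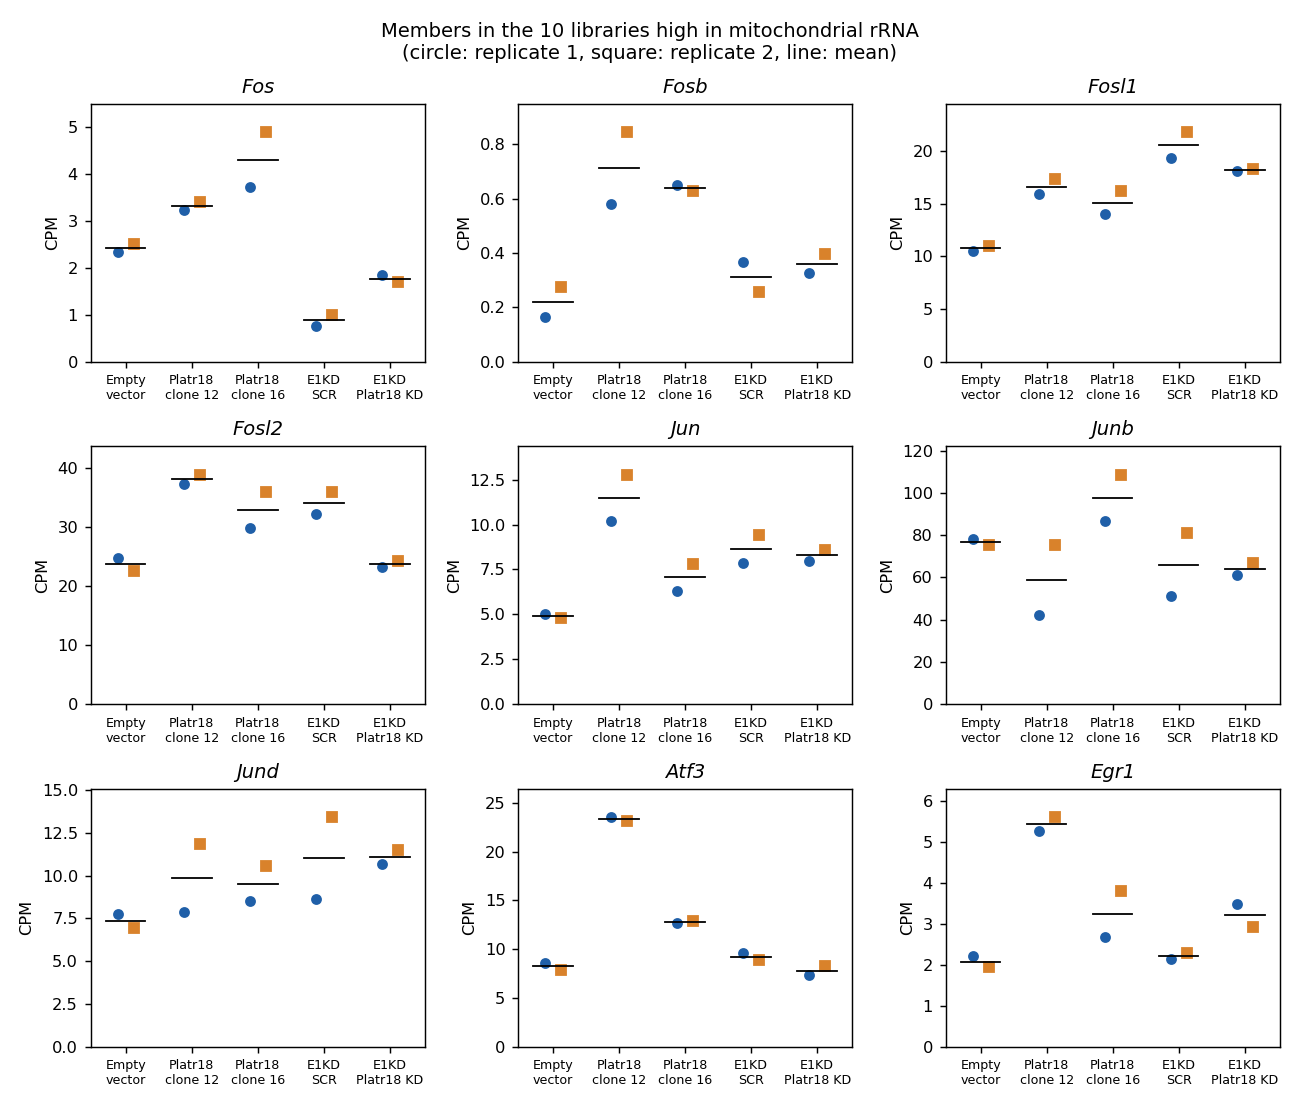
CPM (vertical axis, from 0, scaled for each gene) of the 9 members in the empty vector, Platr18 clone 12, Platr18 clone 16, E1KD SCR and E1KD Platr18 KD libraries. Circles are replicate 1, squares replicate 2 and lines the mean of both. Atf3 was highest in clone 12, at 23.5 and 23.1 CPM, and Fosl2 was lower in E1KD Platr18 KD than in E1KD SCR.

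Silencing of Platr18 in E1KD cells lowered Lncenc1 from a mean of 3.01 CPM to 0.153 CPM. The E1KD SCR mean was itself no higher than that given above for the empty vector. This comparison therefore does not cover the removal of a raised Lncenc1 level. By limma 0 of the 9 members were called, against 1.48% of all tested genes, and 4 had an unadjusted p below 0.05, against 30.7%. Fosl2 and Fos were the 2 members with an adjusted p below 0.05, a share to be read against 19.5% of all tested genes. Fosl2 stood at 32.2 and 35.9 CPM in E1KD SCR and 23.2 and 24.3 CPM in E1KD Platr18 KD, a 1.44-fold lower mean with no overlap (log2 fold change -0.50, 95% interval -0.70 to -0.31, adjusted p = 0.0012 from limma). Fos was higher, at 1.84 and 1.69 CPM against 0.758 and 1.00 CPM (log2 fold change 0.56, adjusted p = 0.0021 from limma). The 95% interval of Fosl1 ran from -0.37 to 0.03, that of Jun from -0.31 to 0.21 and that of Atf3 from -0.41 to -0.03. The libraries of Fosb, Jun, Junb and Jund overlapped between the groups.

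Silencing of hnRNP E1 was present in both kinds of library, through E1KD against NMuMG and through E1KD SCR against the empty vector. In the second pair limma called 0 members, against 5.98% of all tested genes, and 5 had an unadjusted p below 0.05, against 49.4%. Fosl1 was nearest the limit, at 10.5 and 11.01 CPM with the empty vector and 19.4 and 21.8 CPM in E1KD SCR, a 1.91-fold higher mean (log2 fold change 0.87, 95% interval 0.67 to 1.08, adjusted p = 3.8e-06 from limma). Fos was lower, from 2.34 and 2.51 CPM to 0.758 and 1.00 CPM (log2 fold change -0.87, adjusted p = 1.6e-05 from limma), and it was called with a pseudocount of 0.1 (-1.38). Jun, at 7.84 and 9.43 CPM in E1KD SCR, had a log2 fold change of 0.70 and Fosl2, at 32.2 and 35.9 CPM, one of 0.50. Atf3 stood at 9.56 and 8.93 CPM in E1KD SCR and had 0.15 (95% interval -0.04 to 0.35).

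The difference between the pairs was tested as a contrast of the 2 effects. Fosl2 (1.04, adjusted p = 4.2e-05), Jun (1.03, adjusted p = 5.7e-04) and Atf3 (1.25, 95% interval 0.97 to 1.52, adjusted p = 6.9e-06, all from limma) had a larger log2 effect in E1KD against NMuMG, where 3.51% of all tested genes were called and 2.57% were called with the larger effect there. Rescaling by median-of-ratios factors left Atf3 past the limit (1.08) and not Fosl2 (0.87) or Jun (0.86). Leaving out single libraries gave 0.96 to 1.12 for Fosl2, short of the limit without E1KD replicate 1, E1KD SCR replicate 1 or empty vector replicate 1, and 0.89 to 1.17 for Jun, short of it without NMuMG replicate 1 or E1KD SCR replicate 1. Fosl1 had a difference of 0.80 and Fos one of 0.13 (95% interval -0.20 to 0.46). The pairs also differed in kind of library and in vectors, and these cannot be told apart. The listed CPM of Pcbp1 in the controls differed too. Levels were not compared between kinds of library, so whether the control cells differed in Pcbp1 was not tested.

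Duplicates of Junb and Jund differed most on the log2(CPM + 1) scale, while as a ratio the low Fosb duplicates in M1P (0.803 and 0.425 CPM) differed most. In E1KD SCR, Junb stood at 51.2 CPM in replicate 1 and 81.1 CPM in replicate 2. In clone 12 it stood at 42.1 and 75.5 CPM, and in clone 16 at 86.6 and 109 CPM. Jund stood at 8.66 and 13.4 CPM in E1KD SCR and at 7.87 and 11.8 CPM in clone 12. In these 3 groups the log2 difference between duplicates rose with transcript GC content across 16903 genes (Spearman's rho 0.503, 0.507 and 0.405, a description across genes, which are not independent), whereas rho lay between -0.08 and 0.20 in the other 7 groups. Junb (62.6% GC) and Jund (67.1% GC) have the highest GC of the 9 members. The NMuMG duplicates, the control of several comparisons, also differed among genes of 65% to 70% GC, by a median of 0.17. Jund itself differed by 0.39 between them. The part of GC in these differences was not tested.

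**Figure D5:**
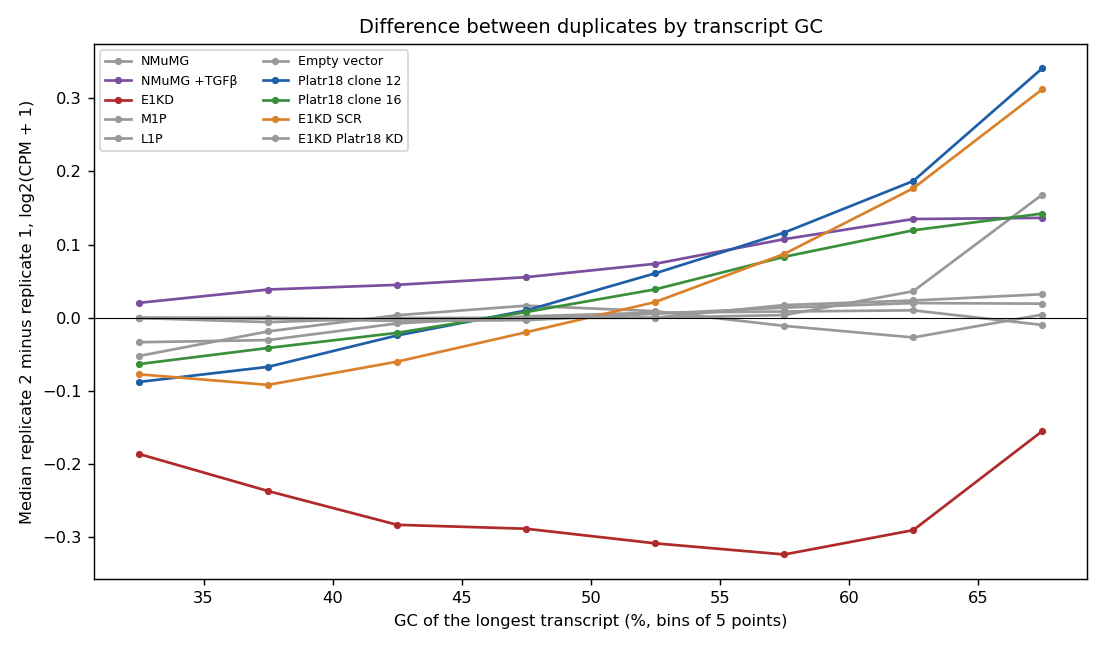
Median of replicate 2 minus replicate 1 on the log2(CPM + 1) scale (vertical axis) in bins of 5 percentage points of transcript GC (horizontal axis), 1 line a group. Clone 12, clone 16 and E1KD SCR slope upward, reaching 0.34, 0.14 and 0.31 in the bin from 65% to 70%, and E1KD lies below 0 throughout. In that bin NMuMG reaches 0.17 and TGFβ-treated NMuMG 0.14.

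Jund was listed under 2 entries. The named one lies on the patch scaffold KV575240.1 from 25119 to 26786 on the plus strand, and an unnamed one with the identifier of the reference Jund gene lies at chr8:70698949-70700616, also on the plus strand. The scaffold entry held 46.8% to 51.8% of their sum in every library, so the levels given for Jund cover about that share of the gene's signal. With the sum of both, the E1KD difference from NMuMG became called (log2 fold change 1.04, adjusted p = 4.1e-04 from limma), the TGFβ difference was 1.61 and that of L1P from NMuMG 1.24. Junb's annotated end overlaps that of Prdx2 on the opposite strand, which held 49.2 to 168 CPM, and Jun overlaps the antisense gene Junos, which held at most 0.285 CPM. Whether counting used strand is not given in the sources used here, so reads of these pairs cannot be told apart.

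Other genes around AP-1 were taken from lists. Among 7 tested dimer partners of the Maf, Batf and Atf groups, 1 was called in the TGFβ comparison and 1 in the E1KD comparison, in both cases Maf, which fell, against 13.5% and 9.44% of all tested genes called in these comparisons. Maf, a basic leucine zipper factor, stood at a mean of 21.9 CPM in NMuMG, 4.49 CPM after TGFβ (log2 fold change -2.06), 4.73 CPM in E1KD (-2.01) and 0.404 CPM in L1P (-4.03). It also fell in E1KD SCR against the empty vector, from 17.5 to 3.68 CPM (log2 fold change -1.98, adjusted p = 7.7e-10 from limma). The 2 Egr corepressors Nab1 and Nab2 were not called in any of the comparisons.

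Of 34 tested other immediate early genes, 11 rose and 1 fell with TGFβ, against 5.85% and 7.66% of all tested genes, with a median log2 fold change of 0.61 beside -0.08 for all tested genes. Ptgs2, which encodes cyclooxygenase-2, rose from a mean of 4.94 to 91.0 CPM (log2 fold change 3.95), Rhob, a small GTPase, from 34.6 to 321 CPM (3.18) and the kinase gene Sgk1 from 7.44 to 59.9 CPM (2.85). In E1KD 9 rose, against 6.44% of all tested genes, and 0 fell, with a median of 0.73 beside 0.17. Ptgs2 reached 64.3 CPM there (3.45), Arc 2.99 CPM from 0.119 CPM (1.83), and the phosphatase gene Dusp2 5.20 CPM where NMuMG is listed at 0. From E1KD to M1P 0 rose and 5 fell, against 3.59% of all tested genes called in either direction. These counts include the shift of all genes, whose median was -0.17 in this comparison. Arc (to 0.149 CPM), Ctgf (607 to 261 CPM) and Dusp2 (to 1.95 CPM) were among those that fell. Between M1P and L1P 0 of the 34 were called, against 1.21% of all tested genes. With Platr18 overexpression 1 of the 34 was called, against 1.46% of all tested genes. This was Ptgs2, which rose from 16.4 CPM to a mean of 57.2 CPM over both clones (log2 fold change 1.74, adjusted p = 2.6e-08 from limma).

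Among 15 tested genes known as AP-1 targets, 10 rose and 1 fell with TGFβ, against 5.85% and 7.66% of all tested genes. Their median log2 fold change was 1.80, beside -0.08 for all tested genes. The cytokine genes Il11 and Lif rose from means of 0.147 to 158 CPM (log2 fold change 7.12) and from 22.1 to 183 CPM (2.99). The metalloproteinase gene Mmp9 was at 0.00895 CPM, less than 1 read, in NMuMG and at 6.30 CPM after TGFβ. In E1KD 6 rose, against 6.44% of all tested genes, and 0 fell. Hmox1 stood at 50.04 CPM against 9.92 CPM (2.22), Il11 at 7.54 CPM (2.89), and the urokinase gene Plau at 7.65 CPM against 0.00953 CPM. From NMuMG to L1P 6 rose, against 6.38% of all tested genes, and 1 fell. Ccnd1, which encodes cyclin D1, was among those that rose, at 2062 CPM against 445 CPM (2.21). Platr18 overexpression raised 4 of the 15 over both clones, against 1.46% of all tested genes called in either direction. Among them were Hmox1 (12.7 to 45.2 CPM, log2 fold change 1.56), Lif (1.16) and Il11 (1.25). With Platr18 silenced in E1KD cells, 1 rose and 1 fell, against 1.48% of all tested genes called in either direction. These were Mmp13 (7.97 to 35.6 CPM, log2 fold change 2.02), which rose, and Il11 (1.16 to 0.0545 CPM), which fell.

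Of 14 tested kinases and serum response factors upstream of the members, 2 rose with TGFβ, against 5.85% of all tested genes. They were the ternary complex factor Elk1 (16.8 to 37.0 CPM, log2 fold change 1.09) and Mkl1, a coactivator of serum response factor (34.4 to 76.9 CPM, 1.13). In E1KD 0 of the 14 were called, against 9.44%. Of 6 tested heat shock genes, read as a sign of cell stress, 3 rose in E1KD, against 6.44% of all tested genes. They were Hspa1b from 1.04 to 6.32 CPM (1.85), Hspa1a from 0.358 to 2.00 CPM (1.13) and Hsp90aa1 from 225 to 505 CPM (1.13). These values include the shift of all genes in E1KD against NMuMG, whose median was 0.17, and the last 2 lie close to the limit. With TGFβ 0 of the 6 were called, against 13.5% of all tested genes, and the difference between these comparisons was not tested. In M1P Hspa1b and Hspa1a fell again relative to E1KD, to 1.05 and 0.377 CPM. Their part in the member differences was not tested.

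Genes with the pattern most like each member were sought among 7178 candidates by Pearson's r over the 20 libraries after removing the mean of each kind. The points share libraries and depth, so these values are descriptions. Fosl1 was nearest to Sfxn1 (r = 0.985) and Mboat1 (0.980), Fosl2 to Fgd3 (0.975) and Dusp7 (0.956), and Jun to Dusp8 (0.977) and Cd44 (0.962). Atf3 was nearest to Arid5a (0.948) and Cdc42ep3 (0.934), Fosb to Acta2 (0.960) and Fam198b (0.955), Fos to Zfr2 (0.908) and Athl1 (0.899), and Egr1 to Fhdc1 (0.883) and Zdhhc21 (0.873). Jund was nearest to its own unnamed entry (0.994) and Tmem184b (0.952), and Junb to an unnamed entry (0.738) and Wnt7b (0.729). Among the members themselves Fosl2 and Jun (r = 0.910) and Jun and Jund (0.903) were closest, and Fosl1 and Fosb were most opposed (-0.736). Fosb reached 1 CPM only in the 2 TGFβ-treated libraries, so its correlations may rest largely on them.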

How the data were processed

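RNA was sequenced in 20 libraries, 2 for each of the 10 conditions. The authors aligned reads to mouse GRCm38.p6 with Bowtie2 2.2.5, counted genes with the expectation-maximization step of Partek, and deposited CPM values, each with 0.0001 added. The deposited CPM values of a library sum to 0.547 to 0.797 M. Low values are whole multiples of 1 read for 91.5% to 98.1% of values (within 0.02 reads), which gave the depths, but not for enough genes to turn CPM back into counts. Here the log2(CPM + 1) values went into limma 3.58.1 under R 4.3.3 (linear model and moderated test with a trend), with 1 mean a group and 10 residual degrees of freedom. Members and gene lists were chosen with earlier results of these data known. All 9 members are given, and from each list at most the 3 called genes with the smallest p in a comparison, plus the 2 most similar genes of each member. The test was checked on simulated data. Transcript lengths and GC come from the GRCm38 gene annotation. Replicate numbers do not mark a shared culture or day in the labels, so samples were not paired. Alternatives were pseudocount 0.1, no filter, a mean of at least 5 CPM, 2 rescalings, fewer groups in the fit, a replicate block, a threshold on adjusted p of 0.05 and leaving out each library. Corrections for Jund's 2 entries and for GC were added after seeing the data.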

Additional observations from a re-analysis of the deposited data

Results flagged for a closer look

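The difference between the effect of hnRNP E1 silencing in E1KD against NMuMG and in E1KD SCR against the empty vector, tested as a contrast with limma, passed the limits for Fosl2 (1.04 on the log2 scale), Jun (1.03) and Atf3 (1.25). The E1KD and TGFβ effects, which share the NMuMG libraries, differed past the limits in the direct comparison for Fosb (-1.30), Fosl1 (3.35) and Egr1 (1.00). The Fosb call follows in part from the filter, which Fosb passed only through the TGFβ-treated libraries. After median-of-ratios scaling, Fosl2 (0.87) and Jun (0.86) in the first contrast and Egr1 (0.71) in the second fell short of the size limit. Atf3, Fosb and Fosl1 stayed past it.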

How the results depend on the processing

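Of 284 counts of members called under an alternative, 267 stayed within 1.5 times the reported count and 17 did not. With a pseudocount of 0.1, members called lower became 1 in E1KD and 1 in E1KD SCR, and members called higher became 2 with Platr18 overexpression and 1 in clone 16. Among genes with a mean of at least 5 CPM, where low members were no longer tested, the TGFβ comparison had 1 member lower, E1KD against TGFβ 1 higher and 0 lower, and L1P against M1P 0 higher. In E1KD against TGFβ 1 member was higher after rescaling to equal sums, after median-of-ratios scaling, with no other groups in the fit and after GC correction, and 2 were lower after median-of-ratios scaling and GC correction. In the difference between the silencing effects 1 member was higher after equal sums, median-of-ratios scaling and GC correction. Leaving out 1 library gave 1 to 2 members higher in E1KD against TGFβ, 0 to 1 with Platr18 overexpression, 0 to 1 for clone 16 against clone 12 and 1 to 3 for the difference between silencing effects. With no other groups in the fit, Atf3 in E1KD, Jund with TGFβ, Jund in L1P and Jun in the difference were no longer called.

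Of 1761 log2 fold changes of single members under an alternative, 1670 kept their direction and call and 53 changed direction, 0 of them a called value. After equal sums these were Junb in E1KD against TGFβ (-0.11), Fosl1, Fosl2, Junb, Jund and Atf3 in M1P against E1KD (0.071, 0.040, 0.025, 0.10 and 0.076), Jun and Junb in Platr18 KD (0.0075 and 0.049) and Fos in the difference (-0.073). After median-of-ratios scaling they were Fosb in E1KD (-0.0075), Junb in E1KD against TGFβ (-0.32), Fosl1, Fosl2, Junb, Jund, Atf3 and Egr1 in M1P against E1KD (0.11, 0.081, 0.065, 0.14, 0.11 and 0.0074), Fosl2 in L1P against M1P (-0.0068) and Junb in Platr18 KD (0.023). After GC correction they were Fosb in E1KD (-0.16), Junb in E1KD against TGFβ (-0.16), Fos, Fosl1, Fosl2, Junb, Jund, Atf3 and Egr1 in M1P against E1KD (0.022, 0.18, 0.084, 0.15, 0.22, 0.12 and 0.10), Junb in L1P against NMuMG (0.028) and Fos in the difference (-0.021). Leaving out 1 library gave, in M1P against E1KD, -0.070 to 0.27 for Fosb, -0.24 to 0.037 for Fosl1, -0.17 to 0.023 for Jund and -0.23 to 0.047 for Atf3. It gave -0.26 to 0.080 for Fosb and -0.0041 to 0.047 for Fosl2 in L1P against M1P, -0.13 to 0.090 for Junb in L1P against NMuMG, -0.26 to 0.15 for Junb with Platr18 overexpression, and -0.17 to 0.054 for Fosb and -0.29 to 0.24 for Jund between the clones. In Platr18 KD it gave -0.0058 to 0.12 for Fosb, -0.17 to 0.071 for Jun, -0.34 to 0.31 for Junb and -0.25 to 0.33 for Jund. In E1KD SCR it gave -0.57 to 0.077 for Junb and -0.0032 to 0.13 for Egr1, and in the difference -0.11 to 0.021 for Fosb. The cause of these changes was not tested.

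With the replicate number as a block no count of members changed, and all genes called were 1606 in E1KD (1614 without the block) and 2310 with TGFβ (2311 without). The correlation of deviations between same-numbered libraries ran from -0.39 to 0.29. This range cannot show whether libraries of the same number were handled together. With 2 libraries a group, a duplicate that stands apart cannot be told from its group's spread, and members under 1 CPM, Fos and Fosb, depend on the pseudocount.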
